A study of Mus musculus with 6 samples.

Results

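A set of 10 genes of blood vessel growth and of the response to low oxygen were followed in epididymal white adipose tissue of 10-week-old male mice. They were the growth factor genes Vegfa, Vegfb, Vegfc, Angpt1, Angpt2, Fgf1 and Fgf2, the transcription factor genes Hif1a and Epas1, and Bnip3. Members were the probe sets that the platform annotation pairs with exactly 1 gene symbol, that symbol being 1 of the 10. This gave 21 probe sets for 10 genes, of 45101 probe sets and 18194 genes on the array. The 3 transgenic mice (aP2-nSrebp1c Tg, on C57BL6;SJL) carried nuclear (active) SREBP-1c, which switches on genes of lipid synthesis, driven by the aP2 (Fabp4) promoter, which is active in fat cells and also in macrophages. The 3 wild type mice (WT C57BL6;SJL) were described by the submitters as litter-matched controls. Whole fat pads were extracted, and each mouse had its own Affymetrix array. The labels call the transgenic mice lipodystrophic, meaning that fat tissue is lost or poorly formed.

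VEGF-A is the main growth signal for endothelial cells and acts through the receptors Flt1 and Kdr. VEGF-B binds Flt1, and VEGF-C acts mainly on lymphatic endothelium through Flt4. Angiopoietin-1 activates the endothelial receptor Tek (Tie2) and steadies vessels, while angiopoietin-2 binds the same receptor and often opposes it. Fibroblast growth factors 1 and 2 act on both endothelial cells and fat cell precursors, and Fgf1 is a target gene of PPARγ in mouse fat. HIF-1α (Hif1a) and HIF-2α (Epas1) are the oxygen-regulated subunits of the HIF factors, and their amounts are set largely by protein breakdown, which RNA levels do not show. Bnip3 is a mitochondrial protein that marks mitochondria for removal, and its gene is a known HIF target.

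Of the 21 member probe sets 16 were bright enough to be tested, from 9 genes; Fgf2 had none among them. In transgenic fat 2 of 16 fell, 1 each of Bnip3 and Fgf1, where 1.3% of all tested probe sets were called lower, and 0 of 16 rose, where 1.67% were called higher. The other 14 did not pass an adjusted p of 0.05 in limma, with p-values adjusted over all 27023 probe sets tested. At an unadjusted p under 0.05 there were 5, where 16.4% of all tested probe sets passed. In both directions together 2.97% of all tested probe sets were called. The groups did not overlap in 7 of 16 member probe sets, 2 higher and 5 lower in transgenic fat, where the share over all tested probe sets was 27.2%. The median log2 fold change of the 16 was −0.11, beside −0.09 for all tested probe sets. Fold changes are transgenic over wild type on the log2(signal + 16) scale, which understates changes of dim genes.

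The array of transgenic replicate 2 stood apart. Its ratio of 3′ to 5′ signal for the Actb and Gapdh controls was 122 and 55.9, against 0.772 to 1.81 on the other 5 arrays, a usual sign of shortened RNA. Without that array 6 of 16 member probe sets passed the threshold, 2 higher and 4 lower, where 13.2% of all tested probe sets did (6.96% higher and 6.23% lower). These belonged to 4 genes: Hif1a, Vegfb, Fgf1 and Bnip3. The groups then did not overlap in 11 of 16, 2 higher and 9 lower, against 42.6% of all tested, and the median was −0.30, beside 0.03 for all tested. Member results that changed side of the threshold without this array are given in both fits. The fat cell marker Adipoq, the adiponectin gene, was bright on every array. It had signals of 4626.2, 6774.1 and 6535.6 in transgenic fat, against 11017, 10674.2 and 12187.8 in wild type fat. Adipoq was thus lower in transgenic fat (log2 fold change −0.93 ± 0.18 SE, adjusted p = 0.0448 in limma).

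**Figure D1:**
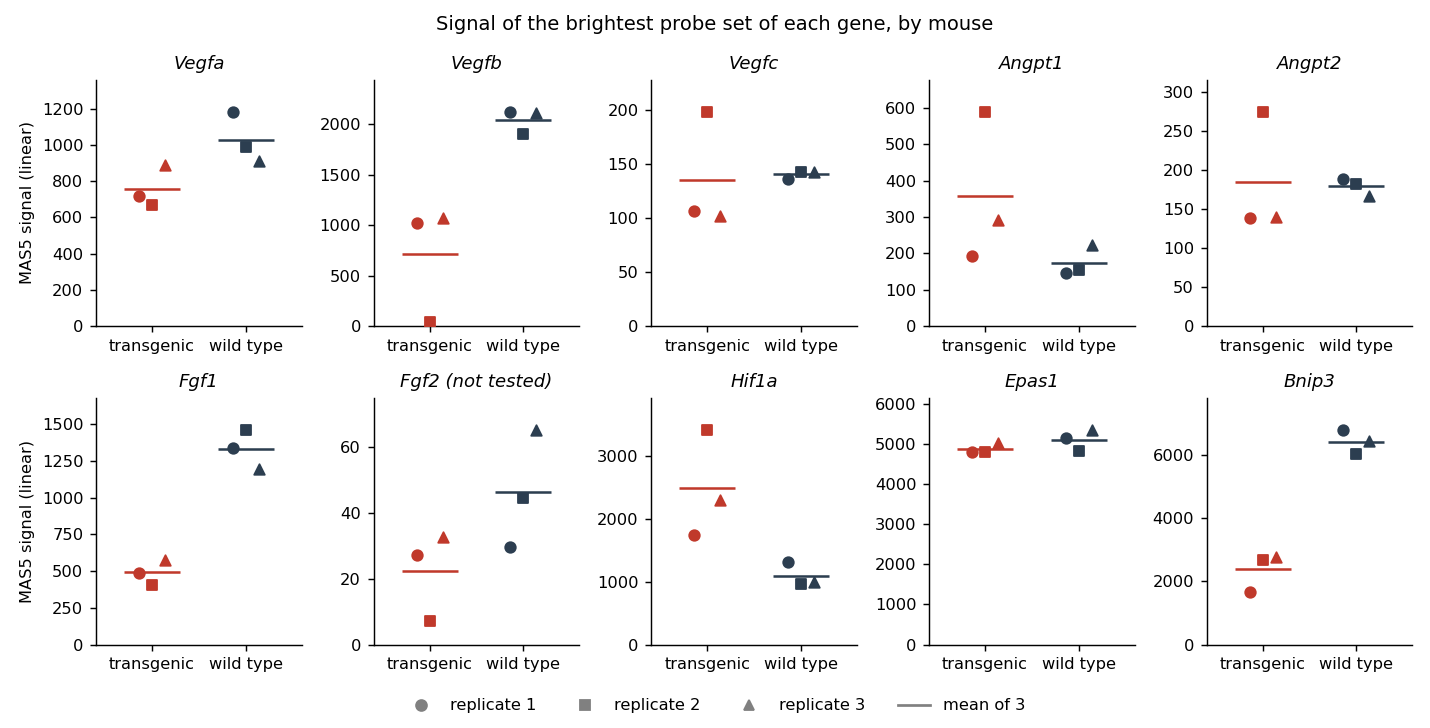
MAS5 signal (linear axis from 0) of the brightest probe set of each gene in every mouse; marker shapes are replicate numbers and lines are group means of 3. Bnip3 and Fgf1 lie lower in all 3 transgenic mice and Hif1a higher, Epas1 overlaps between groups, and the square of transgenic replicate 2 lies far from its group for Vegfb (43.2) and Angpt1 (588.8).

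Bnip3 was lower in every transgenic mouse. Its only probe set, 1422470_at, had signals of 1676.3, 2681.9 and 2764.8 in transgenic fat, against 6775.7, 6032.4 and 6433 in wild type fat. The highest transgenic value was less than the lowest wild type value. Means were 2374 ± 606 in transgenic and 6414 ± 372 in wild type fat (SD, n = 3 each), and the fall was 2.75-fold (log2 fold change −1.46 ± 0.23 SE, 95% interval −2.0 to −0.92, adjusted p = 0.0238). Without transgenic replicate 2 it was 2.96-fold (−1.57 ± 0.20 SE, adjusted p = 0.000986). That array's Bnip3 signal was 1.21 times the mean of the other 2 transgenic arrays. The call was lost without transgenic replicate 3 (adjusted p = 0.0585) and without wild type replicates 1, 2 and 3 (0.146, 0.136 and 0.137), and after centring on array medians (0.0921), with log2 fold changes that stayed between −1.59 and −1.23 over the 6 fits with 1 array left out.

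Fgf1, which encodes an acidic fibroblast growth factor, was likewise lower in all 3 transgenic mice by its brightest probe set. Signals of 1423136_at were 489.5, 404 and 578.6 in transgenic fat and 1336.7, 1458.8 and 1198.8 in wild type fat. The groups were far apart, with means of 490.7 ± 87.3 and 1331 ± 130 (SD, n = 3 each) in transgenic and wild type fat. The fall was 2.68-fold (−1.42 ± 0.24 SE, 95% interval −1.99 to −0.86, adjusted p = 0.0303), and 2.45-fold without transgenic replicate 2 (adjusted p = 0.00136). A second probe set, 1450869_at, which is annotated to the same sequence record, had 346.8, 174 and 307.2 in transgenic fat, against 507.7, 678.5 and 792.3 in wild type fat. Its groups did not overlap either, at −1.24 ± 0.34 SE with an adjusted p of 0.124, and it passed without transgenic replicate 2, at −0.96 ± 0.22 SE with an adjusted p of 0.02. Another, 1441042_at, was too dim to test, at 5.6, 10 and 42.5 in transgenic and 94.6, 29.7 and 81.2 in wild type fat. For 1423136_at the call was lost when any array other than transgenic replicate 2 was left out (adjusted p from 0.0592 to 0.214) and after centring on array medians (0.0695).

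Fgf2, the basic fibroblast growth factor gene, had 27.2, 7.2 and 32.6 in transgenic fat and 29.5, 44.5 and 65 in wild type fat. These values of its single probe set, 1449826_a_at, lie near the offset of 16 and overlap, and they were not tested.

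Hif1a had higher signals in transgenic fat by its brightest probe sets, without passing the test on all 6 arrays. The brightest, 1427418_a_at, had 1739.3, 3412.9 and 2307.9 in transgenic fat, against 1310.2, 966.6 and 989 in wild type fat. Every transgenic value was above every wild type value, and the log2 fold change was 1.14 ± 0.30 SE (95% interval 0.43 to 1.84, adjusted p = 0.113). The second, 1416035_at, had 441.4, 674.8 and 691.9 in transgenic and 338.1, 296.4 and 268.9 in wild type fat, again without overlap (0.94 ± 0.27 SE, adjusted p = 0.147). Both passed the threshold without transgenic replicate 2, at 1.85-fold (0.88 ± 0.20 SE, adjusted p = 0.0195) and 1.80-fold (0.85 ± 0.23 SE, adjusted p = 0.0397). Of the 2 dimmer probe sets, 1448183_a_at spread more within groups than between them, at 305, 5.1 and 204.9 in transgenic and 4.4, 64.5 and 223.8 in wild type fat (0.64 ± 1.24 SE, adjusted p = 0.817; 1.86 ± 0.79 SE in the fit of 5 arrays, adjusted p = 0.172), and 1431981_at was too dim to test.

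Epas1 differed little between groups by its bright probe set. Signals of 1435436_at were 4798.6, 4797 and 5034.4 in transgenic fat and 5157.7, 4842.4 and 5346.5 in wild type fat, and the ranges overlap. The log2 fold change was −0.07 ± 0.13 SE, with a 95% interval of −0.38 to 0.25 (adjusted p = 0.82), and −0.06 without transgenic replicate 2. A dimmer probe set, 1449888_at, ran from 131.3 to 502.8 in transgenic fat and from 137.2 to 938.5 in wild type fat, so that its log2 fold change of −0.06 had an SE of 0.77. Its sign changed without transgenic replicate 2, to 0.47 ± 0.62 SE (adjusted p = 0.694).

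The promoter windows of Bnip3, Hif1a and Vegfb are shown because these genes passed a test, Bnip3 on all 6 arrays and Vegfb and Hif1a without transgenic replicate 2, and because HIF factors bind DNA at the core ACGTG or GCGTG. Sequences are from RefSeq (GRCm38.p6), printed 5′ to 3′ on the strand of the gene, 250 bases before the annotated start and 50 after it. Capitals mark each match to ACGTG or GCGTG on either strand, the reverse strand reading CACGT or CACGC.
Bnip3, chr7:138909457-138909756, minus strand: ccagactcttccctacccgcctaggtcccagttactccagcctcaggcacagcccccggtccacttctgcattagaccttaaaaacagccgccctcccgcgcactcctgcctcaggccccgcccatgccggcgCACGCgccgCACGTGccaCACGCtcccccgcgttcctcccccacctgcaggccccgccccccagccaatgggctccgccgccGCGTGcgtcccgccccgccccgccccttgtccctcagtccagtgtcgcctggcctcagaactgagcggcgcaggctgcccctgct
Hif1a, chr12:73907617-73907916, plus strand: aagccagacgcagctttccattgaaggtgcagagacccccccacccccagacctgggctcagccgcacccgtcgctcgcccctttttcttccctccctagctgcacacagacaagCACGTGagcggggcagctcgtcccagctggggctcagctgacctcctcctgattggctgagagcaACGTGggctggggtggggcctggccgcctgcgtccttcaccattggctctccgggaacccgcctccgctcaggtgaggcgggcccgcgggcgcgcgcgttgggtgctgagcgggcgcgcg
Vegfb, chr19:6987602-6987901, minus strand: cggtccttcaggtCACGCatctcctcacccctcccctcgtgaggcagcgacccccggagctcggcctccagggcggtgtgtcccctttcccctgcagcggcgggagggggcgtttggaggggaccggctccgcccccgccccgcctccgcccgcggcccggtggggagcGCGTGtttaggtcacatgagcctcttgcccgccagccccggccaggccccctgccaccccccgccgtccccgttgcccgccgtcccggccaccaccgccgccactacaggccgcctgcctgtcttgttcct
RefSeq windows were found for 6 of the 10 genes, 7 in all. In the Bnip3 window ACGTG matched at −108 and −107 from the start, on opposite strands of 1 palindromic CACGTG, and GCGTG matched 3 times, at −117, −99 and −35. The Hif1a window also held CACGTG, at −135, and a further ACGTG at −70. Vegfb had no ACGTG and 2 matches to GCGTG, at −237 and −81. The window at the first Vegfa start and that of Vegfc held 0 matches to either core, and Fgf2 held 1 GCGTG. A second Vegfa window, at an alternative start, held 1 of each. Of 32851 promoter windows of this length 19.6% hold ACGTG, 32.4% GCGTG and 7.15% CACGTG, counting both strands. TCACNCCAC, a form of the sterol regulatory element that SREBP factors bind, was in 0 of the 7 windows and in 1.24% of all. Such matches describe the letters and are not evidence of binding.

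Vegfb gave the widest gap between the fits with and without transgenic replicate 2. Its probe set 1451803_a_at had 1021.6, 43.2 and 1069.8 in transgenic fat and 2123.1, 1904.9 and 2113 in wild type fat. All transgenic values were lower, but that of replicate 2 was 0.0413 times the mean of the other 2. The log2 fold change was −2.35 ± 1.08 SE on all 6 arrays (adjusted p = 0.345) and −0.96 ± 0.15 SE without replicate 2, a 1.94-fold fall (95% interval −1.30 to −0.61, adjusted p = 0.00327).

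Vegfa had somewhat lower signals in transgenic fat that did not pass the test in either fit. Its bright probe set, 1420909_at, had 716.1, 667.6 and 889.1 in transgenic and 1182.7, 988.3 and 909.3 in wild type fat. The groups did not overlap, although the nearest values (889.1 and 909.3) almost met. The log2 fold change was −0.43 ± 0.24 SE (95% interval −0.99 to 0.13, adjusted p = 0.421); without transgenic replicate 2 it was −0.35 ± 0.19 SE (adjusted p = 0.29). The dimmer 1451959_a_at had 299.4, 27 and 142.1 in transgenic and 118.7, 227.8 and 376.4 in wild type fat, with wide overlap (−0.86 ± 0.76 SE, adjusted p = 0.6), and −0.07 ± 0.43 SE without transgenic replicate 2.

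Vegfc was measured by 3 probe sets that behaved alike. In 1440739_at the signals were 106.7, 198.7 and 101.7 in transgenic fat and 136.8, 142.9 and 143.1 in wild type fat. Transgenic replicate 2 was above the wild type range and the other 2 transgenic mice below it. The same order held for 1439766_x_at and 1419417_at. Log2 fold changes on all 6 arrays ran from −0.19 to −0.10 (adjusted p of 0.779 to 0.876), and without that array from −0.50 to −0.27 (adjusted p of 0.201 to 0.486). Affymetrix gives the _x_at suffix to probe sets that may bind other transcripts.

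By their tested probe sets the angiopoietin ligands also had transgenic replicate 2 as their highest transgenic value. Angpt1 (1439066_at) had 193.2, 588.8 and 290.6 in transgenic fat, against 145.1, 154.4 and 222.4 in wild type fat, which overlap. Its log2 fold change was 0.86 ± 0.42 SE (95% interval −0.15 to 1.86, adjusted p = 0.379), and 0.44 ± 0.25 SE without that array (adjusted p = 0.323). Angpt2 (1448831_at) had 138, 274.4 and 139.9 in transgenic fat and 188.4, 182.6 and 166.6 in wild type fat. Transgenic replicates 1 and 3 lay below all wild type mice and replicate 2 above them (−0.03 ± 0.31 SE, adjusted p = 0.971), and without replicate 2 the value was −0.33 ± 0.19 SE (adjusted p = 0.317). Neither ligand passed the test in either fit. The second probe sets of both genes were too dim to test, with 1459636_at of Angpt2 between 1.8 and 3.2 on every array.

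**Figure D2:**
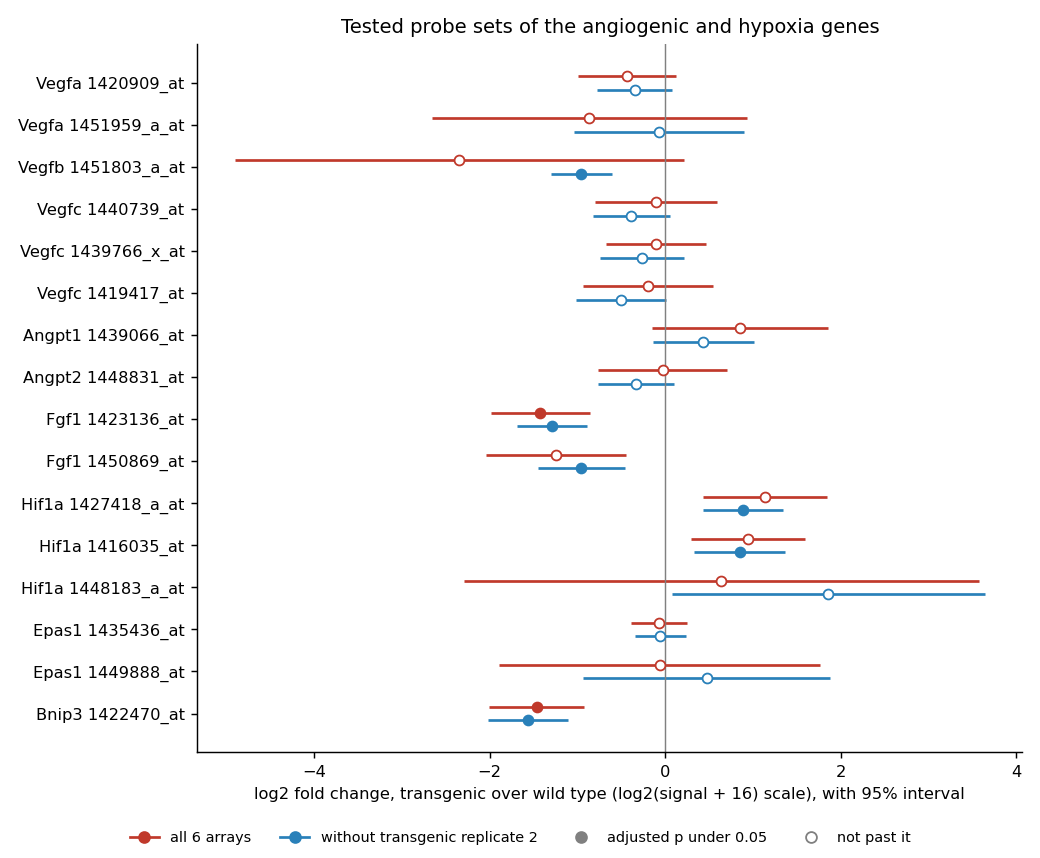
Log2 fold change (x axis, transgenic over wild type) with 95% interval for the 16 tested member probe sets, on all 6 arrays (red) and without transgenic replicate 2 (blue); filled points have an adjusted p under 0.05. Filled red points are Bnip3 and Fgf1 alone, both below 0, and blue ones add Hif1a above 0 and Vegfb below 0. The Vegfb interval spans −4.90 to 0.21 in red and −1.30 to −0.61 in blue.

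For several genes the dimmer probe sets spread far more between mice of 1 group than the bright ones. Transgenic replicate 2 was the lowest transgenic array in 11 of 21 member probe sets and the highest in 6. In wild type fat replicate 3 was the highest array in 10 of 21. Among these were the dimmer probe sets of Vegfa (1451959_a_at), Angpt1 (1421441_at), Epas1 (1449888_at) and Hif1a (1448183_a_at), and the single, dim one of Fgf2 (1449826_a_at). Their highest over lowest wild type signal was between 2.20 and 50.9. On these 5 probe sets transgenic replicate 2 was the lowest transgenic array. The dim 1441042_at of Fgf1 and 1431981_at of Hif1a were instead highest on wild type replicate 1, with ratios of 3.19 and 3.54. For the bright probe sets of Vegfa, Hif1a and Epas1 the highest over the lowest wild type signal was 1.30, 1.36 and 1.10. Transgenic replicate 1 and wild type replicate 3 had a low 3′ over 5′ ratio of the Pcx control, 3.10 and 3.06, against 14.1 to 52.0 on the other 4 arrays. Whether this ratio sets the spread was not tested.

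Within the classes of this ratio the probe sets of the genes that passed a test could only keep their direction, because their groups did not overlap. The sizes of the differences are given as a description. Between transgenic replicate 1 and wild type replicate 3, with 1 mouse each and no test, the log2 difference was −1.93 for Bnip3, −1.26 for Fgf1, −1.04 for Vegfb and 0.80 for Hif1a. Among the other 4 mice it was −1.23, −1.50, −3.00 and 1.31 for the same genes, and −0.90 for Vegfb without transgenic replicate 2. With the class as a block on all 6 arrays the adjusted p was 0.03 for Bnip3 and 0.0562 for Fgf1.

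**Figure D3:**
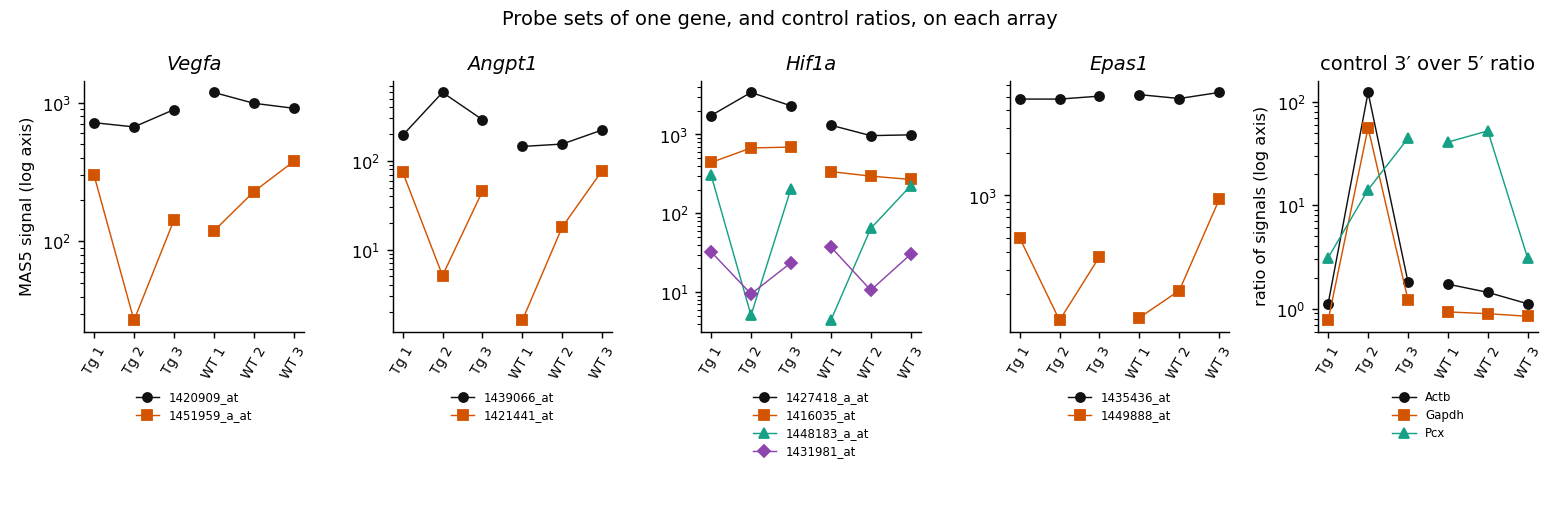
MAS5 signal (log axis) of each probe set of Vegfa, Angpt1, Hif1a and Epas1 on the 3 transgenic (Tg) and 3 wild type (WT) arrays, and the 3′ over 5′ signal ratio of 3 control genes (log axis, right). The bright probe sets of Vegfa and Epas1 run nearly level and those of Angpt1 and Hif1a peak on transgenic replicate 2 (588.8 and 3412.9), while 1451959_a_at, 1421441_at, 1448183_a_at and 1449888_at are lowest on that array among transgenic ones and highest among wild type ones on replicate 3, where the Pcx ratio is 3.06.

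Receptors for angiogenic ligands formed a list of 19 genes, all of them tested. On all 6 arrays 1 was called lower and 0 higher, leaving 18; of 13112 genes 3.77% were called, 2.23% higher and 1.54% lower. At an unadjusted p under 0.05, 2 were higher and 2 lower, where 9.44% of all genes were higher and 8.95% lower. Without transgenic replicate 2, 5 fell, 1 rose and 13 did not pass, against 15.4% of all genes, 7.33% lower and 8.04% higher. The median log2 fold change was −0.45 on all arrays and −0.23 without that array, beside −0.04 and 0.02 for all genes. Each gene outside the 10 members was represented by its brightest tested probe set.

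The receptor that fell in both fits was Fgfr1, a main receptor of FGF1 and FGF2. It had 523, 565 and 516.4 in transgenic fat and 1616.5, 1539.4 and 1555.5 in wild type fat. These groups are tight and far apart, a 2.88-fold fall (−1.53 ± 0.20 SE, adjusted p = 0.0128). Leaving out single arrays moved the adjusted p of Fgfr1 to at most 0.127. After centring on array medians its call was lost, with 0 receptors called lower. Its 2 other tested probe sets had −2.64 and −1.49, which did not pass on all 6 arrays (adjusted p = 0.207 and 0.0509), and both passed without transgenic replicate 2. Without transgenic replicate 2, Fgfrl1, an FGF receptor that lacks the kinase domain, fell (−1.08, adjusted p = 0.00208), as did Met, the receptor of hepatocyte growth factor (−0.75, adjusted p = 0.0432), although a second Met probe set had 0.14 there. On all 6 arrays the log2 fold changes were −0.89 for Fgfrl1 (adjusted p = 0.108), −0.45 for Met (adjusted p = 0.542) and 1.03 for Pdgfrb (adjusted p = 0.126). Pdgfrb, a receptor of pericytes and stromal cells, rose without transgenic replicate 2 (0.78, adjusted p = 0.0167). Its second probe set had 0.66 in the same fit (adjusted p = 0.0497), but −0.28 on all 6 arrays (adjusted p = 0.87).

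The receptors of the member ligands on endothelial cells were added for their role, after their values were seen. Flt1 had 428.6, 159.6 and 497.3 in transgenic fat and 533.9, 502.5 and 533.4 in wild type fat (−0.66 ± 0.43 SE, adjusted p = 0.497). Kdr had 611.6, 178.7 and 691.7 in transgenic fat and 873.6, 855.9 and 1058.2 in wild type fat (−1.09 ± 0.50 SE, adjusted p = 0.348). All transgenic values were lower for both, with replicate 2 the lowest by far. Without that array Flt1 had −0.17 (adjusted p = 0.595), Kdr −0.50 (adjusted p = 0.112) and Flt4 −0.42 (adjusted p = 0.204). Tek and Tie1 fell in that fit, by 0.71 and 0.75 on the log2 scale (adjusted p = 0.0313 and 0.0216), but had adjusted p of 0.568 and 0.326 on all 6 arrays.

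Summed signals of several cell type marker lists also differed between the groups, while few single markers passed the test. Of all genes 2.23% were called higher and 1.54% lower on all 6 arrays, and 8.04% and 7.33% without transgenic replicate 2. The sum of 11 endothelial markers ran from 1877.6 to 8842 in transgenic fat (from 7169.4 without replicate 2) and from 12283.2 to 13750.6 in wild type fat, with 0 of 11 called in limma on all 6 arrays and 6 lower without that array. For 8 measured adipocyte markers the sums were 17840.5 to 33281 in transgenic and 51242.6 to 56095.8 in wild type fat, with 2 called lower (5 lower and 1 higher without that array). The 10 macrophage markers summed to 21330.1 to 29235.1 in transgenic and 14071.4 to 16490.4 in wild type fat, with 0 of 10 called on all 6 arrays, and 5 higher and 1 lower without that array.

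Mesothelial markers, 6 in all, had sums of 670.3 to 1968.1 in transgenic and 4813 to 5515.6 in wild type fat, with 2 called lower (5 without transgenic replicate 2). The 9 pericyte and smooth muscle markers summed to 8046.6 to 8997.9 in transgenic and 10559.9 to 12568.4 in wild type fat, but single genes went both ways, with 1 lower on all 6 arrays, 2 higher and 2 lower without that array, and medians of −0.17 and 0.02. Sums were also apart for T and B cell markers (406.1 to 650.4 in transgenic and 356 to 379.7 in wild type fat), skeletal muscle markers (203.4 to 378.8 in transgenic and 564.8 to 1260.1 in wild type fat) and erythroid markers (234.1 to 537.8 in transgenic and 690.3 to 896.6 in wild type fat), with 0 called on all 6 arrays in each. For erythroid and skeletal muscle markers, 3 tested in each, the median log2 fold changes went the other way from the sums. They were 0.32 and 0.13 on all 6 arrays. Without transgenic replicate 2 they were 0.34 and 0.15, with 1 marker called lower in each list. Sums of fibroblast and epididymis markers overlapped.

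The defining endothelial gene Pecam1 had 693.4, 6.6 and 812.4 in transgenic fat, against 1232, 1180.9 and 1080.9 in wild type fat. Adgre1, a macrophage surface receptor, had 1504.9, 3319.6 and 2612.8 in transgenic fat, against 830.9, 763.5 and 609.4 in wild type fat. No marker of the 10 lists was listed at 0 on any array. Their part in the values of the members was not tested, and in whole fat pads fewer cells of a type and less RNA per cell cannot be told apart.

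**Figure D4:**
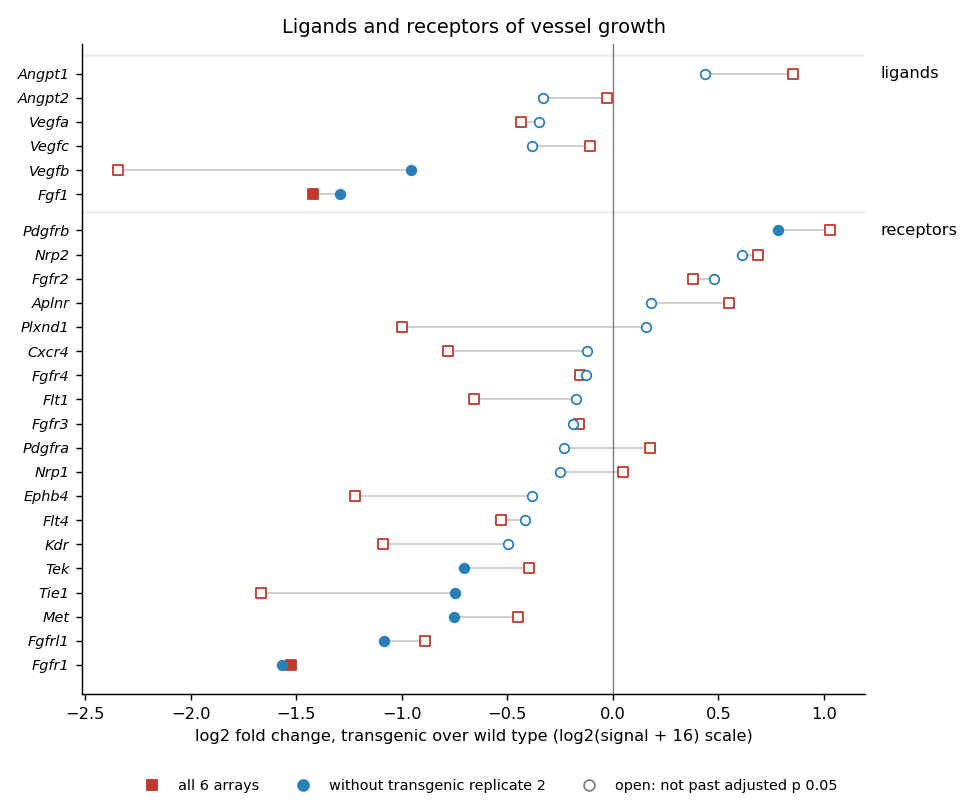
Log2 fold change (x axis, transgenic over wild type) of 6 member ligands and 19 receptor genes, 1 probe set per gene, on all 6 arrays (red squares) and without transgenic replicate 2 (blue circles); filled symbols have an adjusted p under 0.05. Filled red squares are Fgf1 and Fgfr1 alone, and Kdr, Tie1 and Vegfb move towards 0 when the array is left out.

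Other ligands of vessel growth, a list of 14 tested genes, had 0 calls in limma on all 6 arrays. At an unadjusted p under 0.05, 2 were higher and 1 lower, where 9.44% of all genes were higher and 8.95% lower. Without transgenic replicate 2, 2 of the 14 rose and 1 fell, where 8.04% of all genes were higher and 7.33% lower. Cxcl12, a chemokine of stromal cells, had 1507.2, 2804 and 2265.1 in transgenic fat and 1025.3, 862.4 and 770.8 in wild type fat, with 1.26 (adjusted p = 0.0762) on all arrays and 1.06 (adjusted p = 0.0114) without that one. Its second probe set moved the other way in that fit (−0.74, adjusted p = 0.0309), so the direction of Cxcl12 is not settled. Fgf7, a stromal growth factor for epithelium, had 0.90 (adjusted p = 0.0737) on all arrays and rose by 0.83 (adjusted p = 0.035) without that array. The other tested probe set of Fgf7 was higher by less in both fits and did not pass in either. Angptl4, an inhibitor of lipoprotein lipase whose gene responds to PPARs and to hypoxia, had 2405.3, 1405.3 and 2538.8 in transgenic fat and 5442.4, 4255.9 and 4571.6 in wild type fat. Its groups do not overlap, and it had −1.20 on all arrays (adjusted p = 0.0711) and fell by 0.93 on the log2 scale in the fit of 5 arrays (adjusted p = 0.00373).

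Among 12 tested inhibitors of angiogenesis there were also 0 calls in limma on all 6 arrays. At an unadjusted p under 0.05, 1 was higher and 4 lower, where 9.44% of all genes were higher and 8.95% lower. Thbs1, the thrombospondin-1 gene, had 201.5, 52.2 and 459.3 in transgenic fat and 1451.8, 2098.8 and 1206.7 in wild type fat. All transgenic mice were lower (−3.02 ± 0.68 SE, adjusted p = 0.0736), and the gene fell without transgenic replicate 2 (−2.28 ± 0.34 SE, adjusted p = 0.00205). Timp3, an inhibitor of metalloproteases that also blocks VEGF binding to Kdr, had −1.92 (adjusted p = 0.116) and fell without that array (−1.32, adjusted p = 0.0014). The 3 other tested probe sets of Timp3 were lower in both fits but did not pass in either. Thbs1 and Timp3 were the 2 calls among the 12 without transgenic replicate 2, where 15.4% of all genes were called.

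The HIF machinery had 15 tested genes, of which 1 rose and 0 fell, where 2.23% and 1.54% of all genes did. At an unadjusted p under 0.05, 2 were higher and 1 lower, where 9.44% and 8.95% of all genes were. The one that rose was Siah2, a ubiquitin ligase that promotes the breakdown of HIF prolyl hydroxylases. It had 282.9, 215.4 and 378.2 in transgenic fat and 71.9, 90.4 and 105.2 in wild type fat, a 2.89-fold difference (1.53 ± 0.28 SE, adjusted p = 0.0401), with an adjusted p as high as 0.22 when single arrays were dropped, and it rose by 1.72 without transgenic replicate 2. Cited2, which competes with HIF-1α for the coactivator CBP/p300, had −0.85 (adjusted p = 0.253) and fell without transgenic replicate 2 (−1.02, adjusted p = 0.0353).

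Known HIF target genes moved both ways. Of 41 tested genes other than the members, on all 6 arrays 3 were called higher and 2 lower, leaving 36, against 3.77% of all genes in either direction; without transgenic replicate 2, 9 rose, 7 fell and 25 did not pass, against 15.4%. At an unadjusted p under 0.05, 8 were higher and 10 lower on all 6 arrays, where 9.44% of all genes were higher and 8.95% lower. The median log2 fold change was 0.10 on all arrays and 0.19 without that array. Aldoc, a glycolytic aldolase, had 393.7, 817.5 and 703.1 in transgenic fat and 47.2, 53.4 and 42.9 in wild type fat, a 9.83-fold rise (3.30 ± 0.32 SE, adjusted p = 0.0043). Plod2, a lysyl hydroxylase of collagen, had 1784.6, 2400.8 and 2450.6 in transgenic and 393.7, 332.6 and 351.7 in wild type fat, a 5.89-fold rise (2.56 ± 0.23 SE, adjusted p = 0.0036). These 2 genes passed the threshold whichever array was left out (adjusted p up to 0.0441), with log2 fold changes of 3.09 and 2.49 without transgenic replicate 2.

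Ero1a, an oxidase of the endoplasmic reticulum, rose 3.13-fold (1.65 ± 0.30 SE, adjusted p = 0.0387; at most 0.214 when single arrays were dropped). Downward, Pfkfb3, an enzyme that makes the glycolytic activator fructose 2,6-bisphosphate, had 421.1, 1199 and 782 in transgenic fat and 4770.1, 3523.8 and 3777.8 in wild type fat. Its transgenic values were all far below the wild type range, a 5.33-fold fall (−2.41 ± 0.38 SE, adjusted p = 0.0249; at most 0.146 when single arrays were dropped). Stc2, which encodes stanniocalcin-2, fell 2.61-fold (−1.38 ± 0.24 SE, adjusted p = 0.0327; at most 0.212); it was named after its values were seen. In the fit of 5 arrays Ero1a had 1.41, Pfkfb3 −2.76 and Stc2 −1.29 on the log2 scale. 1 of the 2 other tested probe sets of Ero1a and of Stc2 passed in the same direction, and the single other ones of Plod2 and Pfkfb3 did not pass on all 6 arrays. After centring on array medians 3 HIF targets were called higher and 0 lower, so the calls of Pfkfb3 and Stc2 were lost.

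**Figure D5:**
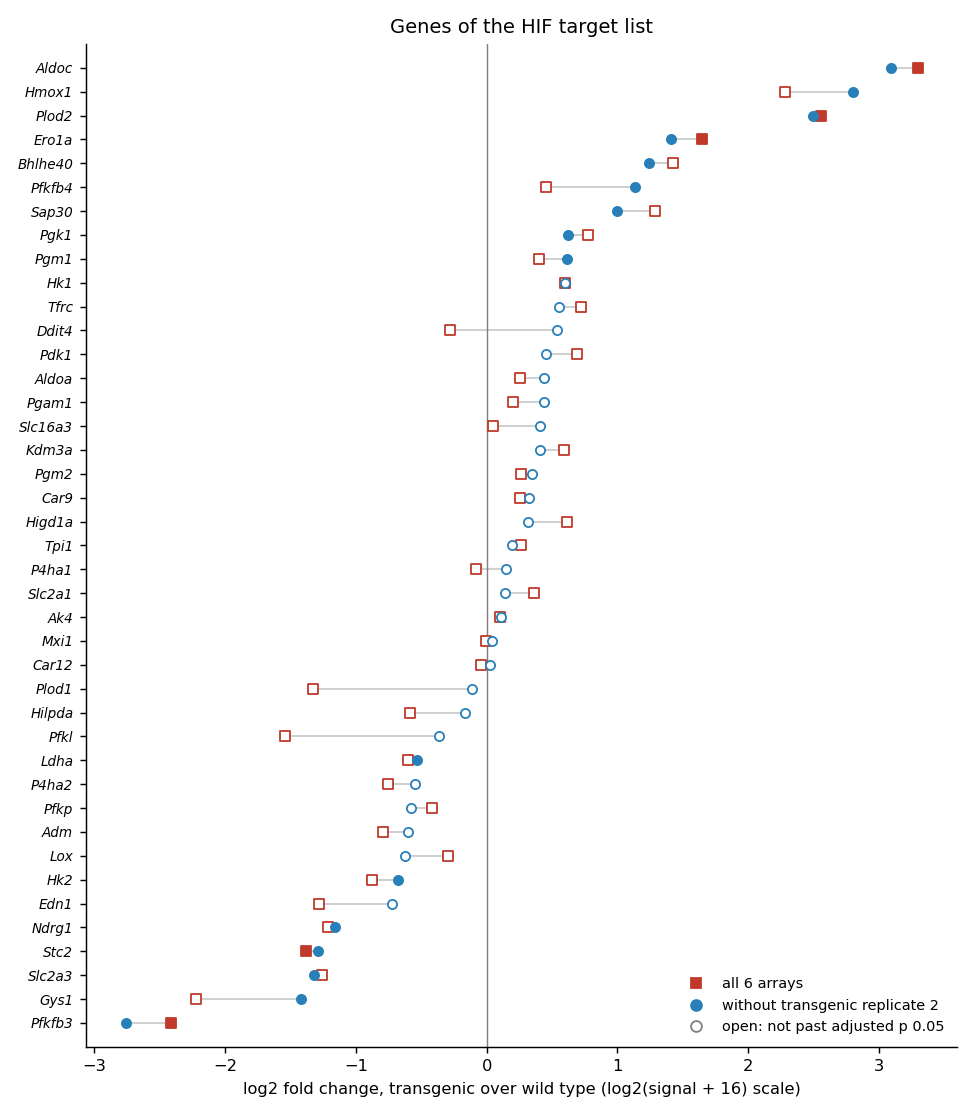
Log2 fold change (x axis, transgenic over wild type) of the 41 tested genes of the HIF target list, 1 probe set per gene, on all 6 arrays (red squares) and without transgenic replicate 2 (blue circles); filled symbols have an adjusted p under 0.05. Genes spread to both sides of 0, from Pfkfb3 at −2.41 to Aldoc at 3.30 on all arrays, with a median of 0.10.

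Genes that act beside Bnip3 in mitophagy and the BH3-only family, 18 of them tested, had 0 calls in limma on all 6 arrays. At an unadjusted p under 0.05, 2 were higher and 2 lower, where 9.44% of all genes were higher and 8.95% lower. Without transgenic replicate 2, 3 of the 18 rose and 2 fell, where 8.04% of all genes were higher and 7.33% lower. The BH3-only genes Bbc3 (1.20, adjusted p = 0.00687) and Bid (0.85, adjusted p = 0.0149) rose in that fit, and Bik fell (−1.37, adjusted p = 0.0307). With all 6 arrays Bbc3 had 0.54 (adjusted p = 0.661), Bid 0.86 (adjusted p = 0.108) and Bik −1.14 (adjusted p = 0.19). Sqstm1, the gene of the autophagy receptor p62, rose by 0.80 (adjusted p = 0.0043) without transgenic replicate 2, but had −0.29 ± 0.84 SE (adjusted p = 0.883) on all 6 arrays. The other tested probe sets of Bid, Bik and Sqstm1 did not pass in either fit. Bnip3l, the closest relative of Bnip3, was not used here because its probe sets are paired with more than 1 symbol.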

How the data were processed

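RNA of 6 mice, 1 per array, was measured in 2 groups of 3 on MOE430v2.0 arrays. The deposited values are linear MAS5 signal intensities per probe set, computed by the authors, per the submitters' processing notes; the scaling target was not given. MAS5 sums up the probes of a set in 1 signal and does not correct for shortened RNA. There are 0 columns of other samples. The number of arrays limits the precision. The p-values weigh group differences against the spread between separate mice, which limma moderates over all tested probe sets.

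Of 45101 probe sets 34958 have 1 gene in the platform annotation, 932 several and 9211 none; only the first were named, and 64 control probe sets were left out. The log2 of the deposited intensity + 16 was tested without further normalization, after dropping the dimmest 40%, by mean log2 over all 6 arrays. Groups were compared with limma 3.58.1 (lmFit, eBayes with trend, two-sided, 4 residual degrees of freedom) in R 4.3.3, and p-values were adjusted by Benjamini-Hochberg over the 27023 left, calling those at an adjusted p under 0.05; all adjusted p are limma's. The code of the fit was checked on simulated data with independent noise and no array that stood apart, unlike these data. Python 3.11.15 (pandas 2.3.3, numpy 2.4.6) wrote the tables and matplotlib 3.10.9 the figures.

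The members and the 6 gene lists and 10 marker lists were chosen with earlier results of these data known. All members are named; from each list up to 4 called genes with the largest change are named, taken from the fit without transgenic replicate 2 where fewer than 2 were called on all 6 arrays. Motifs were searched in 300-base RefSeq promoter windows; no window on chromosome 18 is printed, and none was found for Angpt1, Angpt2, Epas1 or Fgf1. Alternatives were other offsets, filters, normalizations and variance settings, weights per array, a block for replicate number and each array left out; the Pcx class as a block was added after the data were seen.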

Additional observations from a re-analysis of the deposited data

How the results depend on the processing

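Over the alternatives run on the 16 member probe sets, 302 values were computed: 249 kept their direction and their side of the threshold, 14 lost the call, 16 gained it and 23 changed sign, 0 of them past the threshold. Of the 16 probe sets, 2 were called in the reported fit, and 2 with offsets of 1 and 64, with no filter, with 60% left out, with quantile normalization and with eBayes without trend or robust. The count was 0 after centring on array medians (6 at an unadjusted p under 0.05), 5 with array weights, 6 with quantile normalization and transgenic replicate 2 left out, 1 with the Pcx class as a block and 7 with that block and without transgenic replicate 2. With 1 array left out it ran from 0 to 6. Over all probe sets the count of 802 became 3359 with array weights, 4976 with quantile normalization and 5937 with the Pcx block, both without transgenic replicate 2, and 141 to 3565 with 1 array left out. The causes were not tested. With 1 array left out, called HIF targets ran from 2 to 9 higher and from 0 to 7 lower. Taking the mean over the tested probe sets of a gene gave 2 called genes, as in the reported fit.

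Deviations of same-numbered mice from their group means had correlations of −0.37, 0.089 and −0.051 for replicates 1, 2 and 3. The labels do not say that a number marks a litter. With 3 mice per group and transgenic replicate 2 standing apart, these correlations cannot decide it. With the replicate number as a block 341 probe sets and 0 members were called in limma, with 6 members at an unadjusted p under 0.05; the adjusted p was 0.0789 for Bnip3 and 0.157 for Fgf1 1423136_at.

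Sign changes were in 7 probe sets. After quantile normalization and after centring on array medians the log2 fold changes were 0.078 and 0.014 for Vegfc 1440739_at, 0.092 and 0.015 for Vegfc 1439766_x_at, 0.13 and 0.090 for Angpt2, and 0.11 and 0.057 for Epas1 1449888_at; Epas1 1435436_at had 0.051 after centring. Epas1 1449888_at had 0.54 with array weights, and without transgenic replicate 2 it had 0.44 after quantile normalization and 0.22 with the Pcx block. With 1 array left out the values ran from −0.38 to 0.049 and from −0.27 to 0.040 for those Vegfc probe sets, from −0.50 to 0.0062 for Vegfc 1419417_at, from −0.33 to 0.13 for Angpt2, from −0.28 to 1.86 for Hif1a 1448183_a_at and from −0.60 to 0.72 for Epas1 1449888_at. The median of all tested probe sets was −0.09 as reported and 0.03 after quantile normalization. Signals near the offset of 16 limit what can be said of Fgf2 and of the dimmer probe sets of Angpt1, Angpt2, Fgf1 and Hif1a.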
